A study of Mus musculus with 16 samples.

Results

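Interferon-stimulated genes were described in hematopoietic stem cells (HSCs) sorted by MAC-1. The set holds 49 genes of the 46078 in the deposited table, taken by gene name as known products of the interferon response, and each stood on 1 line of the table. The members were chosen with earlier results of these data known, so their shares beside those of all genes are descriptions only. They were read in 5 subgroups, 4 transcription factors, 11 nucleic acid sensors, 9 GTPases, 9 genes of the ISG15, ubiquitin and ADP-ribose system and 16 other effectors. All 49 passed the filter on low counts, as did 13661 genes in all.

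MAC-1 is the integrin made of CD11b and CD18, best known from mature myeloid cells. The HSCs were wild-type B6.SJL mouse cells with the LSK SLAM phenotype (lineage negative, cKit+, Sca1+, CD48- and CD150+). Steady-state (SS) HSCs from untreated mice were sorted as SS MAC-1- (n = 3) and SS MAC-1low (n = 3). Recipients were irradiated with 900 cGy and given 8000 LSK cells, and HSCs taken from them 4 weeks later (4wk) were sorted as 4wk MAC-1- (n = 3), 4wk MAC-1low (n = 4) and 4wk MAC-1+ (n = 3). All 4 week HSCs thus share the transfer, the irradiated host and the time since transfer, none of which the SS HSCs have. The MAC-1 gate is part of the definition of each population, and no source used here gives the ages of the mice. The labels do not say whether samples of 1 population came from separate mice, so p-values measure only the spread between these samples, which may be technical.

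Interferons are cytokines of the antiviral defence. Type I interferons bind the receptor of IFNAR1 and IFNAR2, type II interferon binds IFNGR1 and IFNGR2, and both use JAK kinases to activate STAT proteins. A complex with IRF9 as its DNA-binding subunit binds the interferon-stimulated response element (ISRE) in the promoters of target genes, and the gamma-activated site (GAS) is the other main element of such promoters. In the bone marrow, interferons are known to act on HSCs, and stem cells are known to express part of these genes without infection.

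Promoter windows from RefSeq (GRCm38.p6), from 250 bases before to 50 bases after each annotated start, were found for 36 of the 49 members and searched on both strands. The core of the ISRE was written GAAANNGAA and the GAS TTCNNNGAA, with N for any base, and matches of the 2 motifs may share bases. The ISRE core was in a window of 21 of the 36 members (58.3%), against 9.76% of all 27025 genes with a window and 8.56% of all 32851 windows. The GAS was in a window of 8 members (22.2%), against 9.55% of all genes and 8.30% of all windows. A match describes the letters of the window and is not a measured binding site.

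The 250 bases before the start are shown for 4 members as examples, those of the 17 chosen for values in every sample that have the ISRE core in this stretch, with the match in capitals. In Gbp2, Gbp7 and Trim30a the capitals read as the motif on the opposite strand. The stretches are Ifi203, chr1:173942493-173942742 (minus strand), Gbp2, chr3:142620413-142620662 (plus strand), Gbp7, chr3:142530086-142530335 (plus strand), and Trim30a, chr7:104465194-104465443 (minus strand).
Ifi203: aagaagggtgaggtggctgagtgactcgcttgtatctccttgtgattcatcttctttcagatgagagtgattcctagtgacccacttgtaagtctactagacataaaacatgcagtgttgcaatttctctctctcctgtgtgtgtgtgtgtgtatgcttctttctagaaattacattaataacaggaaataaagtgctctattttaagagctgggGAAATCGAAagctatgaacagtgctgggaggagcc
Gbp2: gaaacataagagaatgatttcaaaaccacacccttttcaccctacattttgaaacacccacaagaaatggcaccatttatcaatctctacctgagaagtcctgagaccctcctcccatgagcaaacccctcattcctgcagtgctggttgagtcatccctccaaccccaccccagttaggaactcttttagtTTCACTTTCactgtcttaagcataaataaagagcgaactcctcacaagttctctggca
Gbp7: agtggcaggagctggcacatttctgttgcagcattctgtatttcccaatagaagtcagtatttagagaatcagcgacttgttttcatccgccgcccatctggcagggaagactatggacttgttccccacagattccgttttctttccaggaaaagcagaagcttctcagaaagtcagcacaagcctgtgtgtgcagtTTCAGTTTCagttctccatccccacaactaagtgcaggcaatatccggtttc
Trim30a: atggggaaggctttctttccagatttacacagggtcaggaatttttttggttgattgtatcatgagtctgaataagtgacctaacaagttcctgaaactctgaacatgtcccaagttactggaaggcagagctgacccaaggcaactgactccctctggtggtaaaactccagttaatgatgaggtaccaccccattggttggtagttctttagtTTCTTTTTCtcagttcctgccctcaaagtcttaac

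The centre of the match lay 31 bases before the start in Ifi203, 54 in Gbp2, 48 in Gbp7 and 31 in Trim30a. Ifi44, also among the 17, had its match at the start itself, and other members with a match, such as Gbp3, Isg15, Ifih1 and Ifit3, are not shown.

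**Figure D1:**
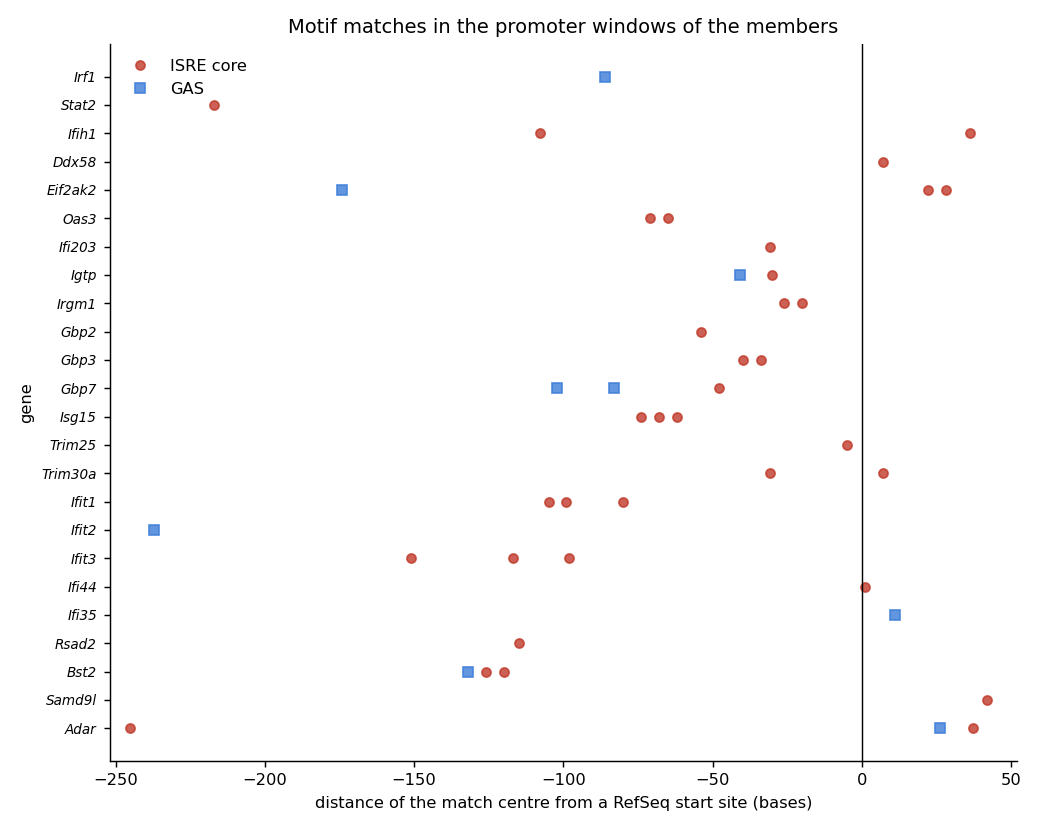
Matches of the ISRE core (circles) and the GAS (squares) in the RefSeq promoter windows of the members that have any, by the distance of the centre of the match from an annotated start (bases, negative before the start). Of the 36 members with a window, 21 had an ISRE core and 8 a GAS, and most ISRE cores lay before the start.

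Summed over the 49 members, the level was highest in 4wk MAC-1+ HSCs. The sum was 3000.5, 2749.8 and 3221 CPM, the counts scaled to a common library size, in SS MAC-1- samples, 3418, 2500.01 and 2987 in SS MAC-1low and 2853, 2880.2 and 2742 in 4wk MAC-1- samples. It was 4370.3, 4189, 3614 and 4459.98 CPM in 4wk MAC-1low and 6176, 5217 and 5209 in 4wk MAC-1+ samples. The 3 populations at 4 weeks did not overlap in this sum, and 4wk MAC-1- samples lay within the range of SS samples. The mean sum of 4wk MAC-1+ was 1.96 times and that of 4wk MAC-1low 1.47 times that of 4wk MAC-1- HSCs. These sums are descriptions without a test. Without Ifi203, the member with the highest CPM, they ran from 2403 to 2568 in 4wk MAC-1-, from 3106 to 3854 in 4wk MAC-1low and from 4425 to 5412 in 4wk MAC-1+ samples. CPM were scaled by TMM factors and depend on the levels of all other genes, and in these bulk samples fewer cells with a transcript and less RNA per cell cannot be told apart.

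**Figure D2:**
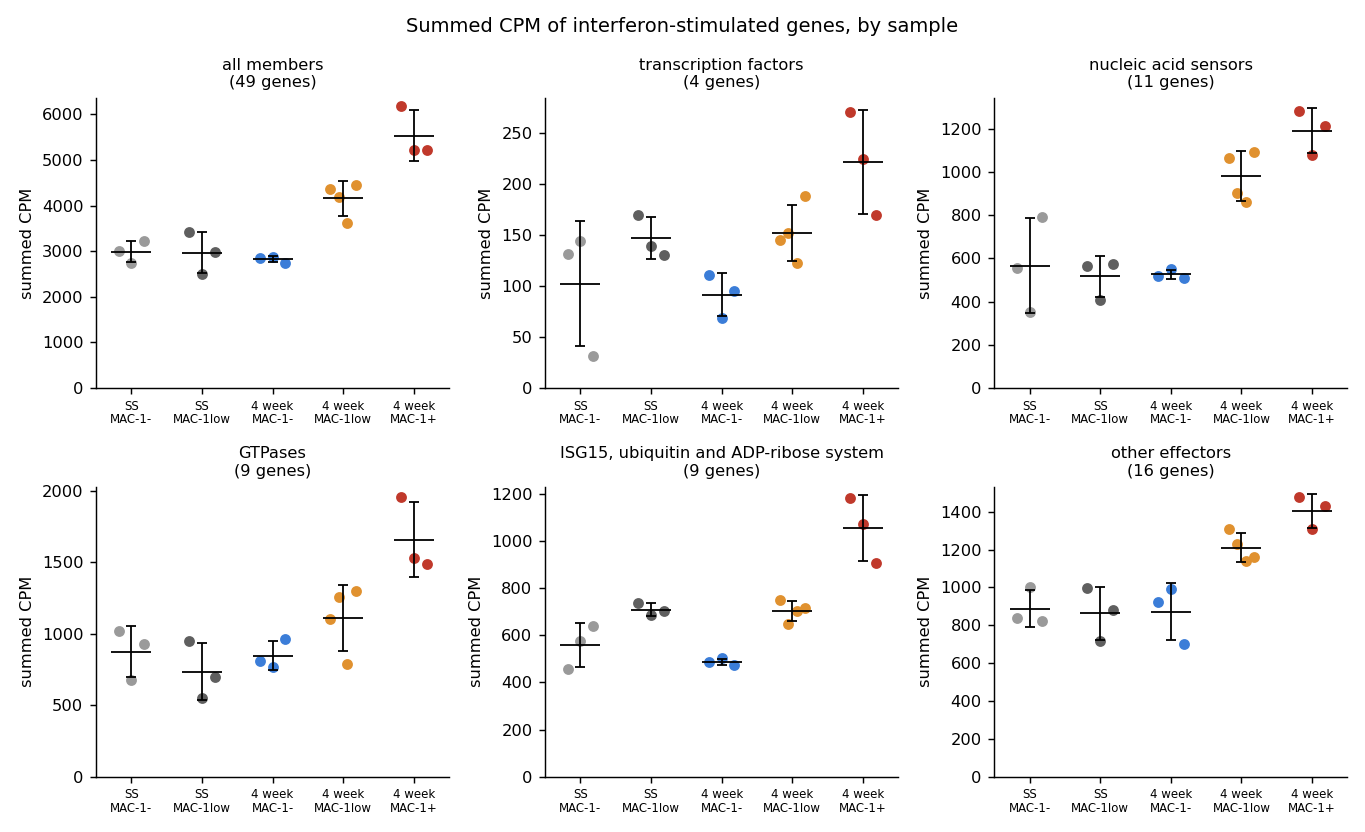
Summed CPM (TMM-scaled) of all 49 members and of each subgroup, 1 point per sample, with the mean (long bar) and SD for the 5 populations. In the sum over all members the 4wk MAC-1+ samples, at 5209 to 6176 CPM, lie above all others.

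Because the gate was set on a myeloid integrin, markers of other cells were read beside these sums. Total counts per sample were 13781278 to 28580658. The 7 neutrophil markers summed to 164, 949.5 and 6931 CPM in the 4wk MAC-1+ samples and to at most 167 CPM in any other sample, so that replicate 3, and less so replicate 2, stood apart, and Mmp8 of this list had at most 3 counts in every sample. Replicate 1 had the highest sum of the interferon-stimulated genes. Its neutrophil sum of 164 CPM was above every 4wk MAC-1low (31.4 to 147 CPM) and 4wk MAC-1- sample (23.1 to 69.3 CPM). That sum was also above every SS MAC-1- sample (79.3 to 111 CPM) and within the range of SS MAC-1low samples (131 to 167 CPM). The 7 monocyte and macrophage markers summed to 253 to 282 CPM in 4wk MAC-1+, 129 to 157 in 4wk MAC-1low and 29.1 to 64.5 in 4wk MAC-1- samples. At steady state they summed to 40.9 to 107 CPM in SS MAC-1- and 18.1 to 97.4 in SS MAC-1low samples. Nearly all of the sum was Ms4a6c in SS samples, in 4wk MAC-1low and MAC-1- samples and in 4wk MAC-1+ replicates 1 and 2 (281.8 and 252.4 CPM). In 4wk MAC-1+ replicate 3 Ms4a6c had 142.7 of 269.5 CPM. In 4wk MAC-1+ replicate 3 Ly6c2 and F13a1 were detected too, while Csf1r and Adgre1 had at most 3 counts in every sample. Of 5 plasmacytoid dendritic cell markers 4, and of 7 NK and T cell markers 4, had at most 3 counts in every sample. Of the others, Klrb1c had 539 counts in 4wk MAC-1low replicate 1, 401 in SS MAC-1- replicate 2 and 113 in SS MAC-1low replicate 1. It had at most 27 counts in every other sample. Cd3d had at most 30, Gzma at most 7 and Pacsin1 at most 8 counts in any sample. The 8 HSC markers were all detected in each population, and their sum was 1519 to 1759 CPM in SS MAC-1-, 1532 to 1987 in SS MAC-1low, 689.6 to 889 in 4wk MAC-1-, 1475 to 2084 in 4wk MAC-1low and 2265 to 3451 in 4wk MAC-1+ samples. Ly6a, which encodes the Sca1 of the gate and is itself known to respond to interferon, is in that sum. The 6 megakaryocyte markers summed to 4246 to 6738 CPM in 4wk MAC-1- and to at most 1095 CPM in every other sample. The part of these cell markers in the results was not tested.

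4wk MAC-1+ and 4wk MAC-1- HSCs were compared to see how the interferon-stimulated genes differed with MAC-1 within regenerating HSCs. Of the 49 members, 6 rose in 4wk MAC-1+ HSCs and none fell when p-values were adjusted over the whole table and called below 0.1 (edgeR's quasi-likelihood test). The 6 were the GTPases Gbp2, Gbp7 and Iigp1, the ADP-ribose enzymes Parp9 and Parp14, and the sensor family gene Ifi203. Over all genes tested, 3.25% were called in this comparison, in either direction. The median log2 fold change was 1.04 over the members and 0.07 over all genes, and 41 members (83.7%) had a positive value, as had 52.4% of all genes. An unadjusted p below 0.05 was found for 17 members, all with a positive fold change, and for 13.4% of all genes. DESeq2 called 16 members, all higher, and 11.6% of all genes. In 21 members every 4wk MAC-1+ sample was above every 4wk MAC-1- sample, as in 10.1% of all genes, and in 1, Ifi47, every sample was below, as in 11.5%. Ifi204 is among the 21, but it had 1 count in both 4wk MAC-1+ replicate 2 and 4wk MAC-1- replicate 2. Only the scaling to library size sets these 2 samples apart.

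The count of 6 was 1, 1 and 3 without 4wk MAC-1- replicate 1, 2 or 3 and 3 and 2 without 4wk MAC-1+ replicate 1 or 3. These fits have 1 sample fewer, and the share of all genes called in them is not given here. Gbp2 was called with each of the 16 samples left out in turn (adjusted p from 0.0177 to 0.0777, edgeR). Without 4wk MAC-1+ replicate 3, the sample with the highest neutrophil sum, Gbp2 and Gbp7 were called, and the adjusted p was 0.119 for Iigp1, 0.151 for Ifi203, 0.15 for Parp9 and 0.214 for Parp14 (edgeR).

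**Figure D3:**
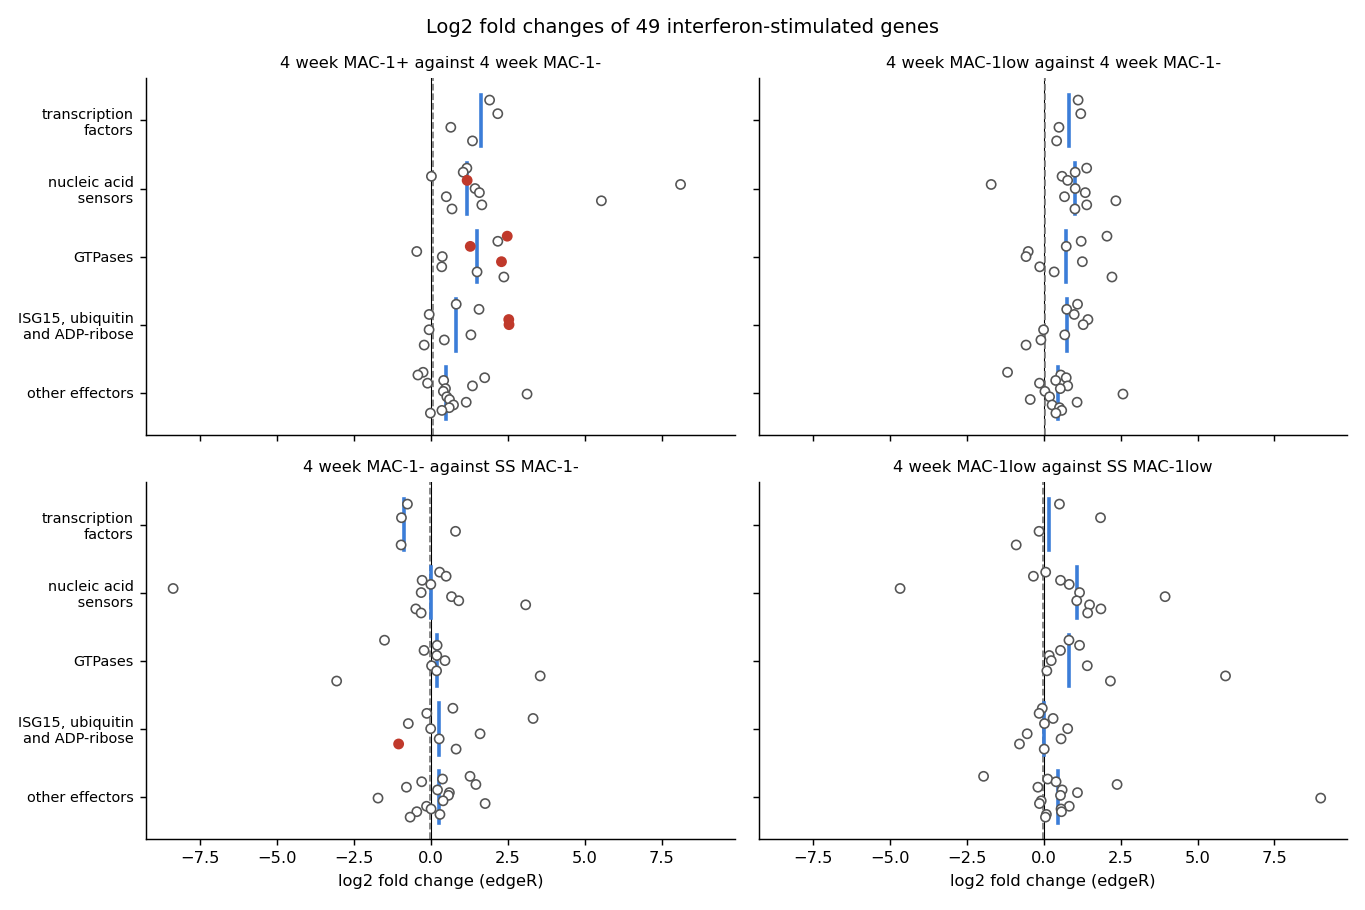
Log2 fold changes (edgeR) of the 49 members by subgroup in 4 comparisons, 1 circle per gene, filled where the adjusted p was below 0.1, with the median of each subgroup (thick bar) and of all genes tested (dashed line). In 4wk MAC-1+ against 4wk MAC-1- HSCs the 6 filled circles lie to the right, and circles beyond 5 belong to genes with few counts, such as Ifi204 and Oasl1.

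The GTPases of the interferon response act on membranes of vacuoles and on viruses inside the cell. Of the 9, 3 rose in 4wk MAC-1+ against 4wk MAC-1- HSCs, none fell and 6 did not pass the test, with a median log2 fold change of 1.49. Gbp2 (ENSMUSG00000028270, chromosome 3, 142620602 to 142638008, with coordinates here and for other genes on GRCm38), a guanylate-binding protein that coats pathogen vacuoles, had 17.1, 47.1 and 48.7 CPM in 4wk MAC-1-, 135, 142, 114 and 236 in 4wk MAC-1low and 334, 138 and 154 in 4wk MAC-1+ samples. Each 4wk MAC-1+ and MAC-1low sample was above each 4wk MAC-1- sample, and within 4wk MAC-1+ HSCs replicate 1 was far above the other two. The mean was 37.6 ± 17.8 (SD, n = 3) and 209 ± 109 (SD, n = 3) CPM in 4wk MAC-1- and MAC-1+ HSCs (log2 fold change of 2.47 with an SE of 0.50, edgeR adjusted p = 0.0186). In SS HSCs, Gbp2 had 77.2, 114 and 132 CPM in SS MAC-1- samples and 140.4, 55.1 and 70.03 in SS MAC-1low samples, so that 4wk MAC-1- HSCs lay below every SS sample (log2 fold change of -1.52 with an SE of 0.49, edgeR adjusted p = 0.319, against SS MAC-1-, which is not past the threshold). A model of only the 2 groups compared gave Gbp2 an adjusted p of 0.114 in 4wk MAC-1+ against 4wk MAC-1- HSCs (edgeR).

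Iigp1, an immunity-related GTPase that loads onto parasite vacuoles, had 86.7, 59.5 and 96.7 CPM in 4wk MAC-1-, 216, 217, 93.1 and 248 in 4wk MAC-1low and 339, 323 and 519.7 in 4wk MAC-1+ samples. Each 4wk MAC-1+ sample was above all others, while 4wk MAC-1low replicate 3 lay among the 4wk MAC-1- samples. The mean was 80.97 ± 19.2 (SD, n = 3) and 394 ± 109 (SD, n = 3) CPM in 4wk MAC-1- and MAC-1+ HSCs (log2 fold change of 2.28 with an SE of 0.51, edgeR adjusted p = 0.0327). The SS samples had 64.4, 101 and 75.4 CPM in SS MAC-1- samples and 95.1, 18.9 and 103 in SS MAC-1low samples, and Iigp1 rose in 4wk MAC-1+ HSCs against SS MAC-1- (log2 fold change of 2.30 with an SE of 0.51, edgeR adjusted p = 0.0461) and against SS MAC-1low HSCs (log2 fold change of 2.44 with an SE of 0.52, edgeR adjusted p = 0.0581).

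Gbp7 (ENSMUSG00000040253, chromosome 3, 142530342 to 142550149), another guanylate-binding protein, had 168, 117 and 227 CPM in 4wk MAC-1-, 308, 253, 189 and 385 in 4wk MAC-1low and 553, 418 and 262 in 4wk MAC-1+ samples. The groups 4wk MAC-1- and MAC-1+ did not overlap, but 4wk MAC-1+ replicate 3 was close to the highest 4wk MAC-1- sample (log2 fold change of 1.27 with an SE of 0.33, edgeR adjusted p = 0.0642). It had 222, 173 and 206 CPM in SS MAC-1- samples and 244, 150.3 and 188 in SS MAC-1low samples. Its call was lost without 4wk MAC-1+ replicate 1 (adjusted p = 0.213) or 2 (0.148), and without 4wk MAC-1- replicate 1 (0.187) or 2 (0.254, edgeR).

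Ifi47, also an immunity-related GTPase, had the highest level of all members per kilobase of exon, 109.7 CPM per kilobase as a mean over the 16 samples. It had 371, 356 and 315 CPM in 4wk MAC-1-, 232, 372, 216 and 161 in 4wk MAC-1low and 226, 312 and 214 in 4wk MAC-1+ samples, and 401, 160.1 and 356 CPM in SS MAC-1- samples and 329, 119.7 and 200.2 in SS MAC-1low samples. It was the 1 member with every 4wk MAC-1+ sample below every 4wk MAC-1- sample, and the difference did not pass the test (log2 fold change of -0.47 with an SE of 0.39, edgeR adjusted p = 0.693). The other 5 GTPases, Mx1, Mx2, Igtp, Irgm1 and Gbp3, had mean levels from 5.45 CPM (Mx2) to 99.5 CPM (Irgm1). Among them Gbp3 had the smallest adjusted p, with 35.7, 27.6 and 41.01 CPM in 4wk MAC-1-, 54.5, 123, 51.8 and 94.8 in 4wk MAC-1low and 217, 114 and 136 in 4wk MAC-1+ samples (log2 fold change of 2.17 with an SE of 0.75, edgeR adjusted p = 0.198). Mx1, the antiviral dynamin-like GTPase, had 0, 0 and 30 counts in SS MAC-1- samples, 6, 0 and 1 in SS MAC-1low, 146, 61 and 112 in 4wk MAC-1-, 153, 11, 4 and 553 in 4wk MAC-1low and 1, 534 and 447 in 4wk MAC-1+ samples, and it was called in no comparison in edgeR.

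The genes of the ISG15, ubiquitin and ADP-ribose system attach or remove small modifiers on proteins. Of the 9, 2 rose in 4wk MAC-1+ against 4wk MAC-1- HSCs, none fell and 7 did not pass the test. Parp9 (ENSMUSG00000022906, chromosome 16, 35938470 to 35972605), which works with the ubiquitin ligase DTX3L, had 13.04, 23.6 and 27.7 CPM in 4wk MAC-1-, 42.4, 85.4, 43.5 and 37.8 in 4wk MAC-1low and 158, 84.3 and 129 in 4wk MAC-1+ samples. Every 4wk MAC-1+ and MAC-1low sample was above the 4wk MAC-1- samples, and 4wk MAC-1+ replicate 2 was just below the highest 4wk MAC-1low sample. The mean was 21.4 ± 7.56 (SD, n = 3) and 124 ± 37.1 (SD, n = 3) CPM in 4wk MAC-1- and MAC-1+ HSCs (log2 fold change of 2.53 with an SE of 0.65, edgeR adjusted p = 0.0642). With 18.8, 41.9 and 4.40 CPM in SS MAC-1- samples and 32.2, 31.2 and 27.8 in SS MAC-1low samples, Parp9 rose in 4wk MAC-1+ against SS MAC-1- HSCs (log2 fold change of 2.51 with an SE of 0.65, edgeR adjusted p = 0.0808). Parp9 overlaps Dtx3l on the opposite strand, and no source used here says whether the counting used strand. Dtx3l itself had 33.2, 33.5 and 56.6 CPM in 4wk MAC-1-, 107, 95.8, 95.6 and 54.3 in 4wk MAC-1low and 128, 20.6 and 67.6 in 4wk MAC-1+ samples (log2 fold change of 0.81 with an SE of 0.60, edgeR adjusted p = 0.632).

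Parp14 (ENSMUSG00000034422, chromosome 16, 35832874 to 35871544), which adds single ADP-ribose units to proteins, had 16.99, 15.03 and 15.6 CPM in 4wk MAC-1-, 37.2, 38.4, 32.2 and 64.4 in 4wk MAC-1low and 63.2, 45.9 and 164 in 4wk MAC-1+ samples. The 4wk MAC-1- samples lay close together below all others at 4 weeks, and 4wk MAC-1+ replicate 3 was far above its 2 partners (log2 fold change of 2.52 with an SE of 0.60, edgeR adjusted p = 0.0419). Without that replicate the adjusted p was 0.214 (edgeR). In SS HSCs Parp14 had 28.3, 9.57 and 41.8 CPM in SS MAC-1- samples and 46.3, 32.9 and 47.5 in SS MAC-1low samples.

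Uba7 (ENSMUSG00000032596, chromosome 9, 107975505 to 107984060), the activating enzyme that starts the transfer of ISG15, had another order of the populations than the members above. It had 262, 264 and 275 CPM in SS MAC-1-, 211, 230.3 and 182 CPM in SS MAC-1low, 99.3, 149 and 137 CPM in 4wk MAC-1-, 108, 139, 129.8 and 105 CPM in 4wk MAC-1low and 156, 199.6 and 161 CPM in 4wk MAC-1+ samples. Each SS MAC-1- sample was above all others, and each 4 week sample, MAC-1+ included, was below the SS MAC-1- samples. The smallest adjusted p of the members over the 5 populations was that of Uba7 (0.0297, edgeR), and Uba7 fell in 4wk MAC-1- against SS MAC-1- HSCs, from 267 ± 7.36 (SD, n = 3) to 128 ± 25.8 (SD, n = 3) CPM (log2 fold change of -1.06 with an SE of 0.21, edgeR adjusted p = 0.0672). That call was lost with any 1 of the 6 samples compared left out (adjusted p from 0.121 to 0.302, edgeR). On these samples, the study listed Uba7 among HSC signature genes that were stable at steady state and rose with MAC-1 at 4 weeks. Its values here are therefore not independent evidence. Each SS MAC-1low sample was below the SS MAC-1- samples, a difference that was not called. The 4 week means were 128, 121 and 172 CPM in MAC-1-, MAC-1low and MAC-1+ HSCs.

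Trim30a, a TRIM family ubiquitin ligase, had the highest level per kilobase of this subgroup (55.8 CPM per kilobase) and 234, 154 and 101 CPM in 4wk MAC-1-, 283, 192, 232 and 342 in 4wk MAC-1low and 518, 425 and 254 in 4wk MAC-1+ samples. The 4wk MAC-1- and MAC-1+ samples did not overlap, and the test was not passed (log2 fold change of 1.29 with an SE of 0.44, edgeR adjusted p = 0.193). At steady state Trim30a had 64.3, 152 and 191 CPM in SS MAC-1- samples and 177, 99.3 and 254 in SS MAC-1low samples. Isg15, the modifier itself, was low and varied within populations, with 0, 5 and 0 counts in SS MAC-1- samples, 2, 0 and 86 in SS MAC-1low, 44, 0 and 1 in 4wk MAC-1-, 42, 68, 35 and 0 in 4wk MAC-1low and 51, 3 and 2 in 4wk MAC-1+ samples. Its level per kilobase, 1.47 CPM per kilobase, was among the lowest of the 49. Usp18, which removes ISG15 and dampens the type I receptor, Herc6, an ISG15 ligase, and Trim25, a ubiquitin ligase that acts on RIG-I, had adjusted p-values of 0.965, 0.273 and 0.993 in 4wk MAC-1+ against 4wk MAC-1- HSCs (edgeR).

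Nucleic acid sensors bind foreign or misplaced DNA and RNA. Of the 11, 1 rose in 4wk MAC-1+ against 4wk MAC-1- HSCs, none fell and 10 did not pass the test. All 11 had a positive log2 fold change, with a median of 1.17, as had 52.4% of all genes. Ifi203 (ENSMUSG00000039997, chromosome 1, 173920407 to 173942672), of the HIN domain family of DNA-binding proteins, had 319.9, 312 and 339 CPM in 4wk MAC-1-, 659, 445, 508 and 606 in 4wk MAC-1low and 764, 632 and 784 in 4wk MAC-1+ samples. The 4wk MAC-1- samples lay within a narrow range, and every 4wk MAC-1low and MAC-1+ sample was above them. The mean was 324 ± 13.6 (SD, n = 3), 555 ± 96.2 (SD, n = 4) and 726 ± 82.6 (SD, n = 3) CPM in 4wk MAC-1-, MAC-1low and MAC-1+ HSCs (log2 fold change of 1.17 with an SE of 0.29, edgeR adjusted p = 0.0579, MAC-1+ against MAC-1-). With 307, 211 and 459.9 CPM in SS MAC-1- samples and 382, 179 and 375 in SS MAC-1low samples, it also rose in 4wk MAC-1+ against SS MAC-1- (log2 fold change of 1.16 with an SE of 0.29, edgeR adjusted p = 0.0771) and SS MAC-1low HSCs (log2 fold change of 1.22 with an SE of 0.29, edgeR adjusted p = 0.0943). Ifi203 overlaps its relative Mndal on the same strand, and reads from this family could be split between copies.

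Ifi204, another DNA sensor of that family, was at or near 0 in most samples, with 283, 0 and 1 counts in SS MAC-1- samples, 0, 0 and 9 in SS MAC-1low, 0, 1 and 0 in 4wk MAC-1-, 0, 0, 0 and 0 in 4wk MAC-1low and 183, 1 and 211 in 4wk MAC-1+ samples. It was high in 3 single samples of 2 populations. Oasl2, a relative of the oligoadenylate synthetases, had 28.1, 40.8 and 25.3 CPM in 4wk MAC-1-, 66.7, 103, 94.7 and 66.9 in 4wk MAC-1low and 124, 64.1 and 107 in 4wk MAC-1+ samples. Each 4wk MAC-1low and MAC-1+ sample was above the 4wk MAC-1- samples, and neither difference passed the threshold (adjusted p = 0.249 for MAC-1+ and 0.615 for MAC-1low, edgeR). In SS HSCs it had 21.6, 23.1 and 88.5 CPM in SS MAC-1- samples and 7.03, 35.9 and 25.5 in SS MAC-1low samples.

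The other 8 sensors had mean levels from 0.555 CPM (Oasl1) to 115 CPM (Ifih1). Ifih1, which encodes the RNA sensor MDA5, had 89.5, 77.96 and 46.98 CPM in 4wk MAC-1-, 207, 97.5, 83.2 and 195 in 4wk MAC-1low and 226, 232 and 118 in 4wk MAC-1+ samples (log2 fold change of 1.43 with an SE of 0.59, edgeR adjusted p = 0.306). The groups 4wk MAC-1- and MAC-1+ did not overlap in it. Ddx58 and Dhx58, which encode RIG-I and LGP2, the DNA and RNA sensor Zbp1, the kinase gene Eif2ak2, which encodes PKR, and the oligoadenylate synthetases Oas2 and Oas3 had adjusted p-values from 0.669 to 1 (edgeR). Oasl1 had 1, 109 and 13 counts in the 4wk MAC-1+ samples and at most 11 in any other sample, so that its level rests on 1 sample.

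Of the 4 transcription factors, 0 passed the test in any comparison, at an unadjusted p below 0.05 1 did in 4wk MAC-1+ against 4wk MAC-1- HSCs and DESeq2 called 1, Irf1 in both cases. Irf1, a factor induced strongly by type II interferon, had 29.5, 14.3 and 31.4 CPM in 4wk MAC-1-, 61.4, 52.7, 34.3 and 69.3 in 4wk MAC-1low and 101, 81.8 and 97.1 in 4wk MAC-1+ samples. These values did not overlap between neighbouring populations at 4 weeks (log2 fold change of 1.90 with an SE of 0.63, edgeR adjusted p = 0.177). In SS HSCs it had 35.1, 83.3 and 9.87 CPM in SS MAC-1- samples and 46.8, 47.8 and 19.8 in SS MAC-1low samples. This spread covered the 4wk MAC-1- and MAC-1low samples and also 4wk MAC-1+ replicate 2 (81.8 CPM). Irf7, which amplifies type I interferon production, had 1.32, 13.3 and 0.482 CPM in 4wk MAC-1-, 9.30, 11.2, 13.97 and 12.1 in 4wk MAC-1low and 26.1, 26.1 and 15.7 in 4wk MAC-1+ samples, with every MAC-1+ sample above every MAC-1low and MAC-1- sample (log2 fold change of 2.16 with an SE of 1.25, edgeR adjusted p = 0.491). Its values in SS HSCs were 6.005, 16.01 and 7.57 CPM in SS MAC-1- samples and 5.05, 0.167 and 4.48 in SS MAC-1low samples.

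Irf9, the DNA-binding subunit of the ISRE complex, had 71.5, 33.8 and 48.5 CPM in 4wk MAC-1-, 65.3, 62.3, 70.3 and 91.5 in 4wk MAC-1low and 105, 85.3 and 48.6 in 4wk MAC-1+ samples and overlapped between all populations at 4 weeks (log2 fold change of 0.64 with an SE of 0.70, edgeR adjusted p = 0.803). SS samples had 43.5, 43.01 and 2.40 CPM in SS MAC-1- samples and 94.4, 45.04 and 101 in SS MAC-1low samples. Stat2, its partner, had a mean of 18.3 CPM over all samples (adjusted p = 0.696, edgeR). The log2 fold change of all 4 was above 0 in 4wk MAC-1+ against 4wk MAC-1- HSCs, with a median of 1.62, as it was in 52.4% of all genes.

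The 16 other effectors act on viral RNA, budding, nucleotides and cell death. None passed the test between 4wk MAC-1+ and 4wk MAC-1- HSCs (3 at an unadjusted p below 0.05, and 3 in DESeq2, Ifi44, Cmpk2 and Rtp4), and their median log2 fold change was 0.49. Ifi27l2a (ENSMUSG00000079017, chromosome 12, 103442167 to 103443680), a small membrane protein that is strongly induced by interferon, had 33.03, 15.02 and 6.19 CPM in SS MAC-1-, 16.9, 10.6 and 9.67 CPM in SS MAC-1low, 52.4, 51.1 and 44.99 CPM in 4wk MAC-1-, 77.2, 72.2, 44.4 and 65.8 CPM in 4wk MAC-1low and 65.8, 58.8 and 71.9 CPM in 4wk MAC-1+ samples. The 4 week samples, MAC-1- included, were all above the SS samples. It rose in 4wk MAC-1+ HSCs from 12.4 ± 3.95 (SD, n = 3) CPM in SS MAC-1low to 65.5 ± 6.57 (SD, n = 3) CPM (log2 fold change of 2.40 with an SE of 0.54, edgeR adjusted p = 0.0738), and it passed the test over the 5 populations (adjusted p = 0.0659, edgeR). In 4wk MAC-1low against SS MAC-1low HSCs the values were 2.39 and 0.195 for the log2 fold change and adjusted p (edgeR), and in 4wk MAC-1- against SS MAC-1- HSCs 1.45 and 0.377. Within the 4 week HSCs it had an adjusted p of 0.844 for MAC-1+ against MAC-1- (edgeR).

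Rtp4, a receptor transporter protein induced by interferon, had 127, 120.1 and 129.9 CPM in 4wk MAC-1-, 249.99, 289.7, 324 and 203 in 4wk MAC-1low and 402, 193 and 234 in 4wk MAC-1+ samples, with each 4wk MAC-1low and MAC-1+ sample above the MAC-1- samples (log2 fold change of 1.14 with an SE of 0.34, edgeR adjusted p = 0.127). In SS HSCs it had 96.2, 102 and 219.6 CPM in SS MAC-1- samples and 168, 110.3 and 171 in SS MAC-1low samples. Ifi44, a cytoplasmic protein of the antiviral response, had 89.9, 73.2 and 47.6 CPM in 4wk MAC-1-, 184, 163, 57.9 and 77.4 in 4wk MAC-1low and 158, 173 and 202 in 4wk MAC-1+ samples (log2 fold change of 1.34 with an SE of 0.49, edgeR adjusted p = 0.241). Its SS values were 30.6, 109 and 42.6 CPM in SS MAC-1- samples and 89.2, 71.5 and 77.9 in SS MAC-1low samples. Ifi44 did not overlap between 4wk MAC-1- and MAC-1+ samples but did between 4wk MAC-1low and both.

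The remaining 13 effectors had mean levels from 8.06 CPM (Ifit3) to 172 CPM (Samd9l). They are Ifit1, Ifit2 and Ifit3, which bind foreign RNA, Rsad2 and Cmpk2, which change the nucleotide pool, Bst2, which tethers budding virus, the RNA-editing enzyme gene Adar, the nuclear body gene Sp100, and Ifi35, Xaf1, Samd9l, Lgals3bp and Tor3a. Their log2 fold changes in 4wk MAC-1+ against 4wk MAC-1- HSCs ran from -0.43 (Bst2) to 3.11 (Ifit3), with adjusted p-values of at least 0.279 (edgeR). Ifit3 had 270, 12 and 0 counts in SS MAC-1- samples, 1, 0 and 0 in SS MAC-1low, 66, 53 and 0 in 4wk MAC-1-, 324, 196, 393 and 0 in 4wk MAC-1low and 307, 124 and 785 in 4wk MAC-1+ samples. In each population but 4wk MAC-1+, at least 1 sample of Ifit3 was at 0.

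**Figure D4:**
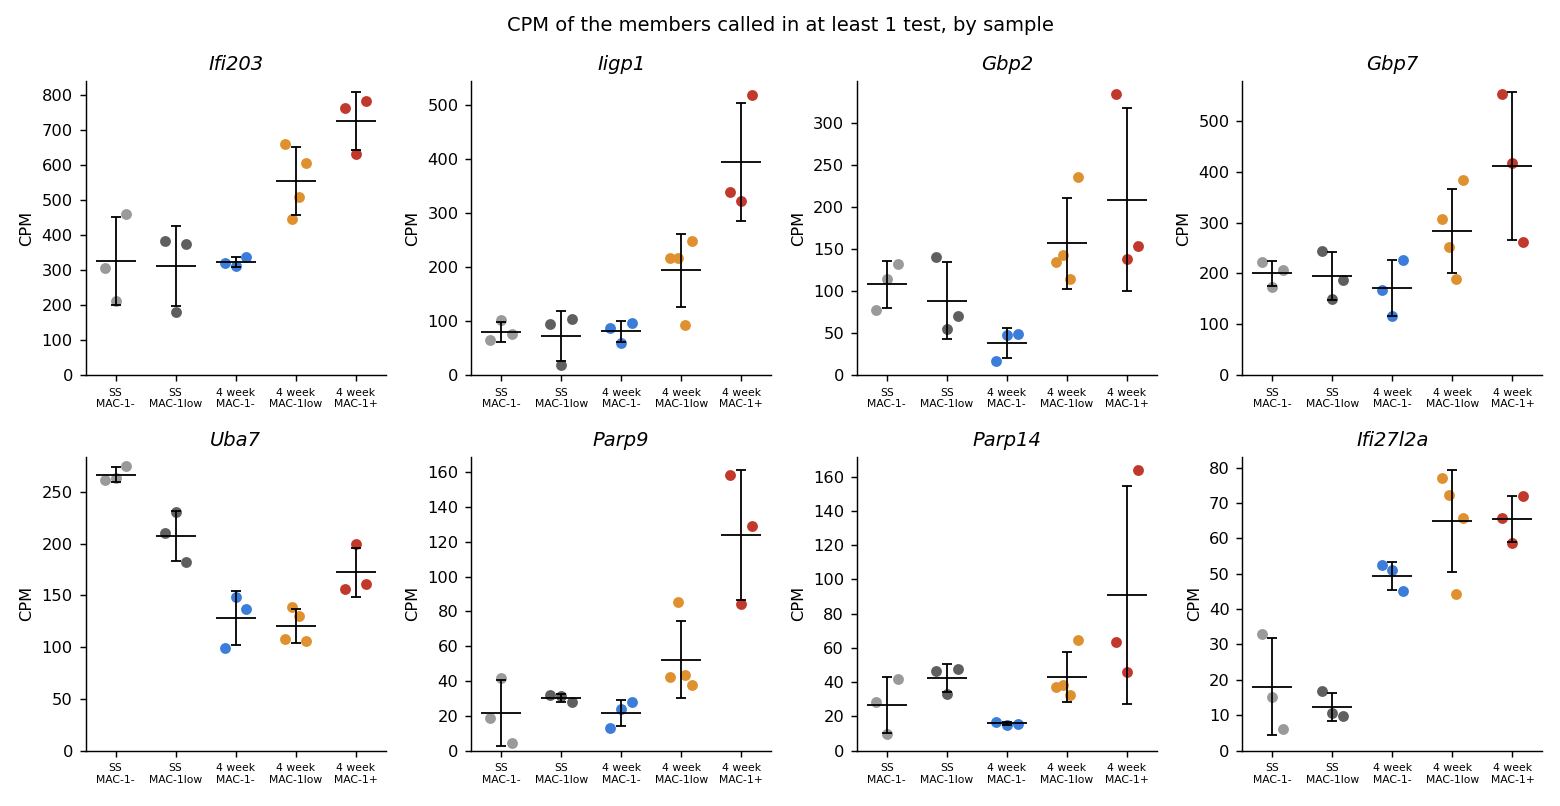
CPM (TMM-scaled) of the 8 members called in at least 1 test, 1 point per sample, with the mean (long bar) and SD for the 5 populations. The 4wk MAC-1+ samples of Iigp1 and the SS MAC-1- samples of Uba7 lie above all other samples of their gene.

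4wk MAC-1low HSCs were set beside both other populations at 4 weeks. Their comparison with 4wk MAC-1- HSCs shares the 4wk MAC-1- samples with the one above. No member was called against 4wk MAC-1- HSCs in edgeR (background 0.278%), 8 had an unadjusted p below 0.05, all with a positive fold change (background 7.25%), and DESeq2 called 3, Gbp2, Parp14 and Rtp4 (background 4.03%). The smallest adjusted p was that of Gbp2 (log2 fold change of 2.06 with an SE of 0.48, edgeR adjusted p = 0.149). The median log2 fold change was 0.69 over the members and 0.05 over all genes. Ifi203, Irf1, Rtp4, Parp14, Parp9, Gbp3, Gbp2 and Oasl2, 8 members, were higher in every 4wk MAC-1low sample, as in 5.22% of all genes, and 0 were lower, as in 5.53%.

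Between 4wk MAC-1+ and MAC-1low HSCs edgeR called no member and no gene at all (background 0%), 4 members had an unadjusted p below 0.05 (background 6.85%), all higher, and DESeq2 called 1, Uba7 (background 3.17%). Uba7 had a log2 fold change of 0.52 there. Ifi204, Irf1, Igtp, Iigp1, Irf7 and Uba7, 6 members, were higher in every 4wk MAC-1+ sample (background 3.73%), and 0 were lower (background 4.48%). For Ifi204 this rests on 1 count in 4wk MAC-1+ replicate 2, against 0 in the 4wk MAC-1low samples. Without a test, the 3 means at 4 weeks were ordered upward from MAC-1- to MAC-1low to MAC-1+ in 29 members, as in 25.2% of all genes, and downward in 1, Trim25, as in 23.1%. 4wk MAC-1+ HSCs had the highest mean of the 5 populations in 29 members, as in 24.8% of all genes.

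**Figure D5:**
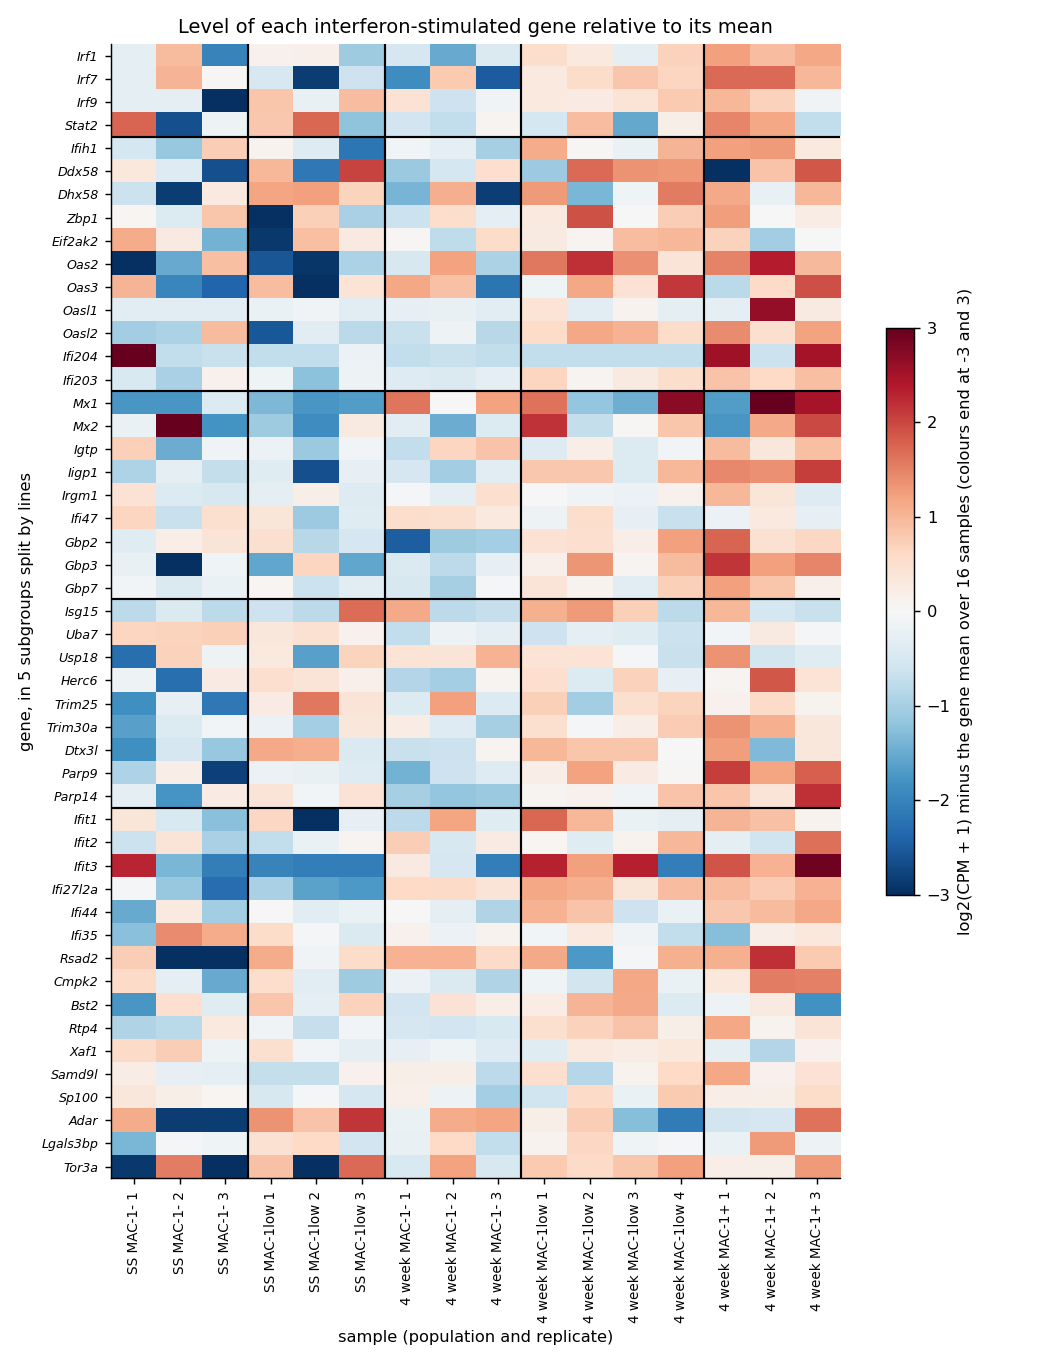
Log2(CPM + 1) of each member in each of the 16 samples, minus the mean of that gene over the samples, with subgroups and populations split by lines (red above, blue below the mean, colours end at -3 and 3). The 4wk MAC-1+ columns are mostly red, and genes with few counts, such as Mx1, Ifit3 and Ifi204, differ between samples of 1 population.

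At steady state no interferon-stimulated gene passed the test between MAC-1low and MAC-1- HSCs. edgeR called no member (background 0.0146%), 3 had an unadjusted p below 0.05 (background 9.36%), and DESeq2 called 3, Trim25 and Dtx3l with a higher and Ifit3 with a lower level in SS MAC-1low HSCs (background 6.78%). The median log2 fold change of the members was 0.02, and that of all genes 0.00. Every SS MAC-1low sample was higher in Trim25, Dhx58, Irf9 and Dtx3l, 4 members (background 5.94%), and lower in Sp100, Irf7 and Uba7, 3 members (background 5.39%). Whether the difference of MAC-1low from MAC-1- HSCs itself differed between 4 weeks and SS was tested with the interaction term. It called no member in edgeR (smallest adjusted p = 0.391, background 0.0586%), 4 had an unadjusted p below 0.05 (background 8.73%), and DESeq2 called Oasl2, Gbp2 and Ifit3 (background 5.28%). Such a p does not show that the MAC-1 difference was alike in both settings.

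Comparisons of 4 week with SS HSCs asked what transplantation changed at a given level of MAC-1. In 4wk MAC-1- against SS MAC-1- HSCs, 1 member, Uba7, fell and 0 rose (background 0.432%), 5 had an unadjusted p below 0.05 (background 10.4%), and DESeq2 called Gbp2, Uba7 and Ifi27l2a (background 7.81%). Members were higher in every 4wk MAC-1- sample in 2 cases, Ifi27l2a and Mx1 (background 9.25%), and lower in 2, Gbp2 and Uba7 (background 7.39%). The median log2 fold change was 0.18, and -0.03 over all genes.

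In 4wk MAC-1low against SS MAC-1low HSCs edgeR called no member (background 0.0439%), 9 had an unadjusted p below 0.05 (background 8.89%), and DESeq2 called 6, Oas2, Oasl2, Mx1, Uba7, Ifit3 and Ifi27l2a, all but Uba7 with a higher level (background 4.6%). The median log2 fold change was 0.55, against -0.02 over all genes. In all, 7 members were higher in every 4wk MAC-1low sample, Ifi203, Ifi27l2a, Rtp4, Parp9, Oasl2, Oas2 and Irf7 (background 5.45%), and 2 lower, Adar and Uba7 (background 4.96%).

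4wk MAC-1+ HSCs have no SS counterpart and were compared with both SS populations. Against SS MAC-1- HSCs, 3 members rose, Ifi203, Iigp1 and Parp9 (background 2.36%), 15 had an unadjusted p below 0.05 (background 14%) and DESeq2 called 14 (background 12.3%), with a median log2 fold change of 1.13 over the members and 0.02 over all genes. Every 4wk MAC-1+ sample was above the SS MAC-1- samples in 15 members (background 8.35%) and below in 1, Uba7 (background 8.62%). Against SS MAC-1low HSCs, 3 rose, Ifi203, Iigp1 and Ifi27l2a (background 1.42%), 18 had an unadjusted p below 0.05 (background 12.1%) and DESeq2 called 10 (background 9.41%), with medians of 1.02 and -0.01. Here 16 members were above (background 7.69%) and 0 below in every sample (background 8.54%). The count against SS MAC-1- HSCs was 0 to 3, and that against SS MAC-1low HSCs 0 to 5, with each sample left out in turn. Both counts were 0 without 4wk MAC-1+ replicate 3, which has the highest neutrophil sum, and whether that sum plays a part was not tested. These fits have 1 sample fewer, and the share of all genes called in them is not given here. The first was 1 without 4wk MAC-1- replicate 2 or 3, 4wk MAC-1low replicate 3 or 4, or 4wk MAC-1+ replicate 1 or 2. The second was also 0 without SS MAC-1low replicate 1 or 2 or 4wk MAC-1+ replicate 1 or 2, was 1 without SS MAC-1low replicate 3, any 1 of the 4wk MAC-1- samples or 4wk MAC-1low replicate 3 or 4, and was 5 without SS MAC-1- replicate 3.

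Over the 5 populations together, edgeR called 4 members, Uba7 (adjusted p = 0.0297), Iigp1 (0.037), Ifi27l2a (0.0659) and Ifi203 (0.0732), where 2.22% of all genes were called. At an unadjusted p below 0.05 there were 17 members (background 13.8%), and DESeq2 called 16 (background 13.6%). The count of 4 fell to 1 without 4wk MAC-1+ replicate 3, and to 2 without SS MAC-1low replicate 3, any 1 of the 4wk MAC-1- samples, 4wk MAC-1low replicate 1 or 4, or 4wk MAC-1+ replicate 2, and was 7 without SS MAC-1- replicate 3. In all, 8 of the 49 members passed at least 1 of the 10 tests and 41 passed none, where 5.1% of all genes passed at least 1.

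The other genes of the pathway were read from ligand to inhibitor. None of the 12 interferon ligand lines had more than 3 counts in any sample, and 9 of them were at 0 in all samples. Of the 6 receptor genes, 5 passed the filter and 0 were called in any comparison in edgeR, while Ifnlr1, the receptor of type III interferon, was at 0 in every sample. Ifnar2, of the type I receptor, had 32.98, 75.8 and 39.4 CPM in 4wk MAC-1-, 75.05, 109.7, 127 and 34.1 in 4wk MAC-1low and 62.7, 44.1 and 46.96 in 4wk MAC-1+ samples, and 94.5, 36.05 and 45.3 CPM in SS MAC-1- samples and 67.3, 82.5 and 71.3 in SS MAC-1low samples. Ifngr1, of the type II receptor, had 61.3, 41.4 and 27.6 CPM in 4wk MAC-1-, 96.8, 99.1, 76.5 and 91.9 in 4wk MAC-1low and 67.3, 68.4 and 48.6 in 4wk MAC-1+ samples, and 68.2, 101 and 112 CPM in SS MAC-1- samples and 129.9, 61.4 and 52.8 in SS MAC-1low samples. edgeR called Ifngr1 in no comparison. DESeq2 called it with a lower level in 4wk MAC-1- against SS MAC-1- HSCs (adjusted p = 0.0475, and 0.375 in edgeR) and with a higher level in 4wk MAC-1low against 4wk MAC-1- HSCs (0.0541, and 0.544 in edgeR). Ifnar1, Ifngr2 and Il10rb had less than 50 CPM in every sample.

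Among the signal transducers, Irf2 rose in 4wk MAC-1+ against 4wk MAC-1- HSCs. Irf2 is a transcription factor that binds the ISRE and is known to restrain it, with 36.6, 34.04 and 34.6 CPM in 4wk MAC-1-, 41.6, 95.2, 73.6 and 54.4 in 4wk MAC-1low and 117, 156 and 108 in 4wk MAC-1+ samples (log2 fold change of 1.85 with an SE of 0.36, edgeR adjusted p = 0.0133). Every 4wk MAC-1+ sample was above every other 4 week sample, and Irf2 also passed the test over the 5 populations (edgeR adjusted p = 0.0963). At steady state Irf2 had 54.1, 99.5 and 83.1 CPM in SS MAC-1- samples and 66.97, 76.6 and 85.3 in SS MAC-1low samples. Jak1, the kinase shared by the type I and type II receptors, had 372, 337 and 329 CPM in 4wk MAC-1-, 651, 461, 344 and 371 in 4wk MAC-1low and 738, 606 and 485 in 4wk MAC-1+ samples, and 216, 305 and 345 CPM in SS MAC-1- samples and 379, 323 and 263 in SS MAC-1low samples. It rose in 4wk MAC-1+ against SS MAC-1- HSCs (log2 fold change of 1.08 with an SE of 0.25, edgeR adjusted p = 0.0595), and its adjusted p against 4wk MAC-1- HSCs was 0.141 in edgeR and 0.022 in DESeq2, which also called it against SS MAC-1low HSCs (0.0146) and over the 5 populations (0.00351). Jak2, Tyk2, Stat3, Irf3, Irf5 and Irf8 were not called in edgeR in any comparison. DESeq2 called Stat3 over the 5 populations (adjusted p = 0.0282), with a positive log2 fold change in 4wk MAC-1low against 4wk MAC-1- HSCs (0.0737) and for the interaction (0.00249), and with a negative one in 4wk MAC-1- against SS MAC-1- (0.0143) and between the SS populations, MAC-1low against MAC-1- (0.0831). It called Irf5 with a positive one in SS MAC-1low (0.0549) and 4wk MAC-1+ (0.0307) against SS MAC-1- HSCs. Irf2 was also called by DESeq2 in 4wk MAC-1low against 4wk MAC-1- (0.0349), 4wk MAC-1+ against 4wk MAC-1low (0.0346) and, with a negative value, 4wk MAC-1- against SS MAC-1- HSCs (0.00415).

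Of the 10 sensor adaptors and upstream receptors, 8 passed the filter and 0 were called in any comparison, and of the 8 inhibitors, which include Socs1, Socs3 and Ptpn2, all passed the filter and 0 were called (edgeR). DESeq2 called 1 gene of these lists, the inhibitor Pias4, over the 5 populations and in 4wk MAC-1+ against SS MAC-1low HSCs.

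Several members share sequence or position with other genes. The annotation (GENCODE M21) has 20 of the 49 overlap another gene, 15 on the opposite strand and 11 with a protein-coding gene, Parp9 and Dtx3l, Ifi203 and Mndal, and Igtp and Irgm2 among them. The Gbp, Oas, Ifit, Mx, Trim30 and Ifi200 families hold close copies, so values of single members are uncertain where reads could fall on a copy. Of the members, 40 had a count above 0 in every sample and 9 had at least 1 sample at 0.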

How the data were processed

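RNA of sorted HSCs was amplified with SMART-Seq v4, made into Nextera XT libraries and sequenced on a NextSeq. The authors deposited 1 table of counts per gene for the 16 samples, not normalized. Reads had been aligned with STAR inside an nf-core workflow for RNA-seq, and the labels also name DESeq2. The sources used here do not give the counter, genome build, annotation or strand setting. Gene names come from the table. Positions are those of GENCODE M21 (GRCm38), matched by gene ID.

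Counts of all 16 samples were fitted with the quasi-likelihood test of edgeR 4.0.16 (R 4.3.3, TMM factors, filterByExpr, robust), with the Benjamini-Hochberg adjustment over all 13661 genes tested and a call at an adjusted p below 0.1. The tests were 8 pairs of populations, the interaction and 1 test over the 5 populations. DESeq2 1.42.0, the tool of the study, was an alternative, as were its size factors, no filter, a log2 fold change above 1, only the groups compared, a replicate block and each sample left out. The script for the fit was tested on simulated data. Figures used Python 3.11.15 and matplotlib 3.10.9.

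Total counts of 13781278 to 28580658 set the precision, and amplified reads without molecular identifiers are not independent molecules. The members and lists were chosen with earlier results of these data known. All 49 members are named. Values in every sample are given for called members, for up to 3 members per subgroup with the smallest p over the 5 populations and for the member with the highest CPM per kilobase, 17 in all. The values per sample of Gbp3, Dtx3l, Ifih1, Mx1, Isg15, Oasl1 and Ifit3 were added after they had been seen. A gene of the pathway lists is not reported here.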

Additional observations from a re-analysis of the deposited data

Results flagged for a closer look

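Among 22 groups of 4 values checked in 4wk MAC-1low HSCs, 1 had a sample far from the others. Parp9 was at 85.4 CPM in replicate 2 and between 37.8 and 43.5 CPM in the other 3 samples, a gap of 0.881 of the whole range. Chance alone sets apart a sample in about 1 in 20 such groups.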

How the results depend on the processing

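No log2 fold change of a called member changed its direction under any of the 5 other settings that refit it or with any of the 16 samples left out. The calls were less stable. In 4wk MAC-1+ against 4wk MAC-1- HSCs they were kept in 15 (Parp9) to 20 (Gbp2) of these fits. Against SS MAC-1- HSCs the call was kept in 17 and lost in 4 for Iigp1, 10 and 11 for Ifi203, and 7 and 14 for Parp9. Against SS MAC-1low HSCs it was kept in 14 and lost in 7 for Iigp1, and 8 and 13 for both Ifi203 and Ifi27l2a. The number of members called depended on the test. DESeq2 called 16 over the 5 populations, 16 in 4wk MAC-1+ against 4wk MAC-1-, 3 in 4wk MAC-1low against 4wk MAC-1-, 1 in 4wk MAC-1+ against 4wk MAC-1low, 3 in SS MAC-1low against SS MAC-1-, 3 in 4wk MAC-1- against SS MAC-1-, 6 in 4wk MAC-1low against SS MAC-1low, 14 in 4wk MAC-1+ against SS MAC-1-, 10 in 4wk MAC-1+ against SS MAC-1low HSCs and 3 for the interaction. It left 2 members without an adjusted p. Without the filter on low counts edgeR called 17 over the 5 populations (7.59% of all genes in that fit), 1 in 4wk MAC-1low against 4wk MAC-1- (0.173%), 0 in 4wk MAC-1- against SS MAC-1- (0.245%) and 5 in 4wk MAC-1+ against SS MAC-1- HSCs (0.825%). A fit of only the groups compared, with fewer samples, called 0 in 4wk MAC-1- against SS MAC-1-, 1 in 4wk MAC-1+ against SS MAC-1- and 0 in 4wk MAC-1+ against SS MAC-1low HSCs. The share of all genes called in the fits of only the groups compared is not given here, so a general loss of calls cannot be told from a loss among the members. The cause of the other changes was not tested.

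With each sample left out in turn, edgeR called 1 to 7 members over the 5 populations, 1 to 8 in 4wk MAC-1+ against 4wk MAC-1-, 0 to 1 in SS MAC-1low against SS MAC-1-, 0 to 1 in 4wk MAC-1- against SS MAC-1-, 0 to 1 in 4wk MAC-1low against SS MAC-1low, 0 to 3 in 4wk MAC-1+ against SS MAC-1-, 0 to 5 in 4wk MAC-1+ against SS MAC-1low HSCs and 0 to 1 for the interaction. The counts of 1 for SS MAC-1low against SS MAC-1- and for the interaction came without SS MAC-1- replicate 1, and that for 4wk MAC-1low against SS MAC-1low without SS MAC-1- replicate 3. The share of all genes called with a sample left out, or with a replicate block, is not given here.

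No source says that a replicate number marks a shared mouse or day, and a second numbering in the labels orders the 4 week samples differently from the replicate numbers used for the block. The deviations of samples with the same number correlated by -0.00109 to 0.0397, and not every sample correlated best with its own number. For example, 4wk MAC-1- replicate 2 correlated by 0.023 with 4wk MAC-1low replicate 3 and by 0.00327 with replicate 2. With 4wk MAC-1+ it correlated by 0.0242 with replicate 2 and by -0.0105 with replicate 3. For 4wk MAC-1- replicate 3 the values were 0.0201 with 4wk MAC-1low replicate 4 and -0.00109 with replicate 3. A block by the second numbering was not fitted. With a replicate block edgeR called 3 over the 5 populations, 5 in 4wk MAC-1+ against 4wk MAC-1-, 0 in 4wk MAC-1- against SS MAC-1-, 1 in 4wk MAC-1+ against SS MAC-1- and 2 in 4wk MAC-1+ against SS MAC-1low HSCs, and 0 elsewhere. Oasl1, Ifi204 and Isg15 had few counts in most samples.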
